A study of Homo sapiens with 9 samples.

Results

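Vehicle-treated MV4-11 cells are described here from 3 of the 9 libraries in the study, taken as the 3 columns labelled DMSO in the deposited table of normalised expression. No column of a treated library entered any value. MV4-11 is an established human cell line from an acute myeloid leukaemia with monocytic features. It carries a KMT2A::AFF1 fusion gene and an internal tandem duplication of FLT3, as the line is generally described. The study exposed this line to DMSO or to one of a pair of compounds named in its title as degraders of STAT3 and STAT5, JPX-0700 and JPX-0750, with 3 libraries each. The vehicle group holds cells kept for 24 h with DMSO, the solvent of the compounds, in RPMI-1640 medium with serum, penicillin, streptomycin and glutamine. No dose of DMSO and no untreated group are given in the labels, so these libraries show the line with its vehicle, and they show 1 leukaemia grown in culture. No source used here says whether the 3 replicates came from separate cultures, and the spread between them may be technical. With 1 group there is no comparison between conditions and no p-value.

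Myeloid cells pass from progenitors, which depend on FLT3 and KIT signalling and on transcription factors such as MYB, to granulocytes and monocytes that load granules and carry lineage receptors. In leukaemia with a KMT2A fusion, the fusion protein holds a progenitor programme active, of which HOXA9, HOXA10, MEIS1 and MEF2C are the textbook targets. FLT3 with an internal tandem duplication signals without its ligand and activates STAT5, whose known targets include PIM1, CISH and MCL1. Levels are given as RPM, the reads of a gene per 1000000 reads on genes in the same library. The kit reads the 3′ end of polyadenylated RNA, so a transcript is expected to give reads near its end whatever its length. Ranks were therefore taken over genes by mean RPM, and the rank of RPM per base of annotated transcript is given beside them as a per-length scale. A set of 3 values always follows the order of replicates 1, 2 and 3, and ± marks the SD with n = 3.

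The strongest signals came from mRNAs of the translation machinery. Many such mRNAs begin with a terminal oligopyrimidine tract, a C at the first transcribed base followed by a run of C and T. Each window below, from RefSeq on GRCh38.p14 and in transcript orientation, covers 10 bases before and 15 bases from the annotated start. Capitals mark the tract where the start is a C followed by at least 4 bases that are each C or T. The first 7 belong to highly ranked genes with the tract and the last 4 to highly ranked genes without it.
RPL27A, chr11:8682782-8682806, plus strand: gaaggccttcCTTTTTCgtctgggc
RPS24, chr10:78033853-78033877, plus strand: aatcgtggttCTCTTTTCCTCCTTg
RPS6, chr9:19380222-19380246, minus strand: gaagttggccCTCTTTTCCgtggcg
RPLP1, chr15:69452808-69452832, plus strand: ggcgcgagagCCCCTTTCCTCagct
RPS14, chr5:150449725-150449749, minus strand: ccctcccactCTCTCTTTCCggtgt
EEF2, chr19:3985449-3985473, minus strand: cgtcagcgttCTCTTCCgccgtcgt
TPT1, chr13:45341169-45341193, minus strand: ctgagtcggcCTTTTCCgcccgctc
RPS29, chr14:49598696-49598720, minus strand: agcgcgcagctggcagcggtggttg
ACTG1, chr17:81512785-81512809, minus strand: cgcggtcggtctcagtcgccgctgc
HSP90AA1, chr14:102139735-102139759, minus strand: tttacggcccgactgcgcaggcgtg
FTL, chr19:48965299-48965323, plus strand: acgtcccctcgcagttcggcggtcc
Of the 25 genes with the highest mean level, 21 matched an entry in the promoter table and 15 of these (71.4%) had the tract at the annotated start. The tract stood at 1104 of 27305 annotated starts in the whole table (4.04%). Among cytosolic ribosomal protein genes it stood at 44 of the 69 with an entry (63.8%), and among translation factor genes at 8 of 21 (38.1%). Of the 37 genes with an entry that were in the top 100 and were not ribosomal protein genes, 7 had it (18.9%). A match describes letters at an annotated start and is not a measured site.

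The libraries held 2701317, 6305586 and 4035371 reads on genes. At least 1 read fell on 9816, 13068 and 13711 genes, and at the depth of the shallowest library 9816, 12519 and 13257 would be expected. Replicate 1 thus detected fewer genes at equal depth, and genes with 1 to 9 reads numbered 767 there against 2453 and 3432. At 10 RPM or more the 3 libraries came closer, with 7549, 7808 and 8039 genes. Of 26929 genes in the table, 9592 had a read in all 3 libraries, 2908 in 2, 2003 in 1 and 12426 in none. Of those read in 2 libraries, 2760 were missing from replicate 1, with a median of 1.64 RPM and a maximum of 38.3 RPM over the other two. Of these 2760 genes, 551 had 5 RPM or more there. By counting error alone, a value of 0 allows a level of up to 1.11, 0.476 and 0.743 RPM in the 3 libraries, which is 3 reads in each.

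Some zeros fell on genes that every cell uses, so a gene at 0 is only said to be listed at 0. RPS18, a ribosomal protein gene at chr6:33272075-33276511 (GRCh38.p14), and PSMB3, a proteasome subunit, were listed at 0 in all 3 libraries. Translation genes EIF4A1 and EEF1D were also listed at 0, and for both 100% of the last 500 exonic bases overlapped another annotated gene. For RPS18 and PSMB3 that overlap was 0%. CEBPA and ALDOA also had an overlap of 100%, with mean levels of 391 and 778 RPM. Here and below, overlap was counted on either strand, and the strand of the counting is not given. The part of such overlap in the zeros was not tested. Of 19033 protein-coding genes, 6454 (33.9%) were listed at 0 in all 3 libraries. In the major histocompatibility complex from HLA-F to DAXX (chr6:29723434-33322959) the count was 118 of 139 (84.9%). In the leukocyte receptor complex from OSCAR to GP6 (chr19:54094668-55038264) it was 33 of 38 (86.8%). In the first pseudoautosomal region from PLCXD1 to CD99 (chrX:276356-2741309) it was 14 of 15 (93.3%), and all 15 of those genes are annotated on both X and Y. No source used here says how reads with several possible positions were counted, and their part in these zeros was not tested.

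The highest mean levels belonged to ribosomal protein genes, which made up 16 of the top 25, 32 of the top 50 and 54 of the top 100. The 86 cytosolic ribosomal protein genes in the table took 16.9%, 20.1% and 14.2% of reads, a mean of 17.1% ± 2.98. Their median mean level was 1684 RPM, against 0.123 RPM over all genes in the table, and 56 of them had a mean of 1000 RPM or more, of 113 such genes in all. RPS29, a protein of the small ribosomal subunit, headed the ranking with 5249, 16145 and 4526 RPM, and it was also rank 1 per base. RPL27A, of the large subunit, followed with 14965, 5972 and 4230 RPM. Neither order was stable between libraries, because replicate 2 was high for RPS29 while replicate 1 was high for RPL27A. RPS27A, which encodes ubiquitin fused to a ribosomal protein, had 10570, 6637 and 3789 RPM. Ribosomal protein genes have many near-identical processed copies in the genome, and no source used here says how reads were divided between copies.

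Beyond the ribosome, the top 25 held genes of mRNA binding, folding, iron storage and the cytoskeleton, and a single gene that does not encode a protein. PABPC1, which binds poly(A) tails, was at rank 3 with 7250, 3362 and 10565 RPM. SRGN, the proteoglycan core protein of myeloid granules, was at rank 5 with 6124, 6610 and 6773 RPM and at rank 17 per base. It was the only gene of the myeloid lists in the top 25, and its libraries lay within a coefficient of variation of 5.19%. PTMA, a small acidic nuclear protein, had 11219, 2770 and 5457 RPM, with replicate 1 far above replicate 2. HSP90AA1, a cytosolic chaperone, had 5922, 4944 and 6033 RPM in 3 close libraries. ACTG1, cytoplasmic actin, had 4065, 9122 and 2341 RPM, and FTL, the ferritin light chain, had 3485, 6201 and 4970 RPM. EEF2, which moves the ribosome along the mRNA, had 3216, 5264 and 3403 RPM. MALAT1, a nuclear long noncoding RNA, had 5475, 1764 and 4374 RPM, with replicate 2 below the other two.

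**Figure D1:**
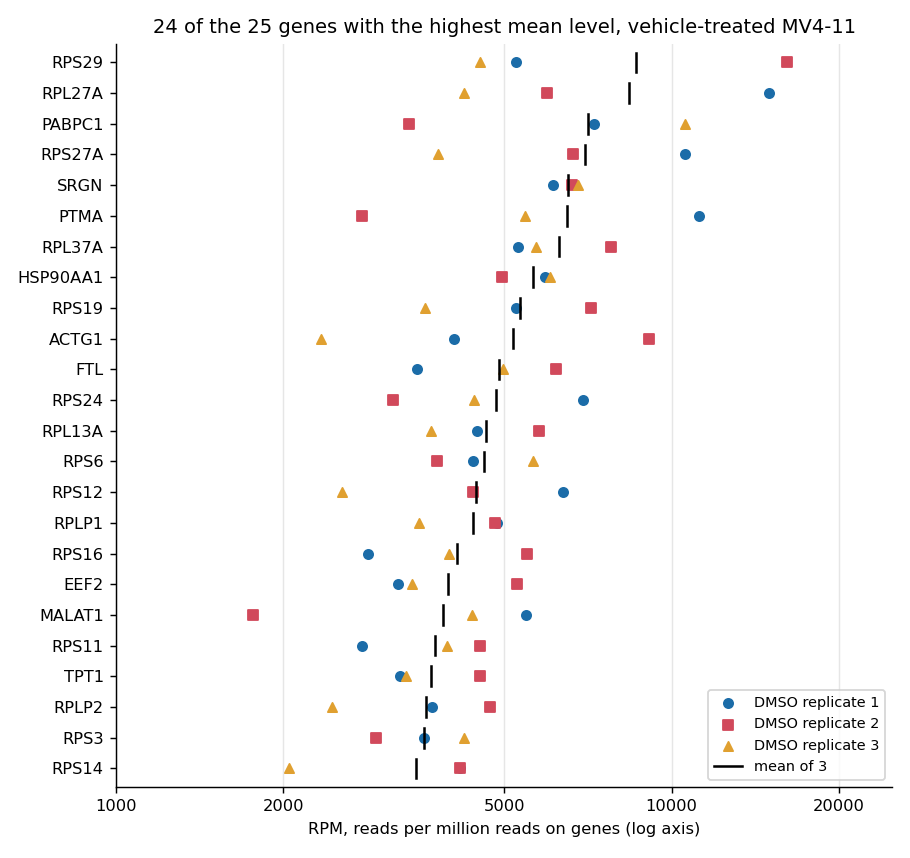
Level of 24 of the 25 genes with the highest mean in RPM (horizontal log axis), ordered by mean from the top. Each point is 1 DMSO library and each black bar the mean of 3. SRGN and HSP90AA1 show close points, while RPS29, RPL27A, PTMA and ACTG1 spread over more than 2-fold.

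A small set of genes carried much of each library. The 25 highest genes of each library took 14.3%, 14.2% and 11.4% of its reads, and the 100 highest took 27.9%, 29.8% and 24.3%. Reads were shared most widely in replicate 3, where 602 genes held 50% of reads, against 492 in replicate 1 and 446 in replicate 2. Protein-coding genes took 98.2%, 98.4% and 98.1% of reads. Long noncoding RNA genes took 1.26%, 0.985% and 1.11%. Of the top 25 genes, 12 were in the top 25 of every library, among them RPS29, RPL27A, RPS27A, SRGN, RPL37A, HSP90AA1, RPS19, FTL, RPL13A, RPS6 and RPLP1. Of the top 100, 68 were in the top 100 of every library, and of the top 1000, 646 were.

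Of the 6 genes that mark the line in the rule used here, 5 were read in all 3 libraries and 1 was near 0. LYZ, lysozyme of granules and monocytes, had 1886, 3051 and 1867 RPM, rank 45 by RPM and rank 35 per base. FLT3, the receptor kinase of myeloid progenitors, had 198, 188 and 208 RPM at rank 939, with a coefficient of variation of 5.17%. CCR2, the chemokine receptor of classical monocytes, had 251, 155 and 127 RPM at rank 1062. MEIS1, a homeobox partner of HOX proteins, had 82.5, 49.8 and 76.6 RPM at rank 2913. MPO, myeloperoxidase of primary granules, went against its use as a marker, with 0, 6.03 and 5.70 RPM, and its mean level was at rank 9547. Leaving out each library in turn kept SRGN at ranks 4 to 7, LYZ at 44 to 52 and FLT3 at 934 to 951. CCR2 moved more, from 887 to 1405, and MEIS1 from 2647 to 3158. MPO stayed between ranks 8976 and 9864. For MPO no other annotated gene overlapped its last 500 exonic bases, as was so for RPS18 and PSMB3, listed at 0. What lies behind the low level of MPO was not tested.

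Granule genes divided into a group with clear reads and a group near 0. Of all 26929 genes, 29.6% had a mean of 10 RPM or more and 46.1% were listed at 0 in all 3 libraries. Of the 19033 protein-coding genes among them, 7756 had a mean of 10 RPM or more and 6454 (33.9%) were listed at 0. Counts of list members are to be read beside both backgrounds. Of 16 primary granule genes, 8 (50%) had a mean of 10 RPM or more and 1 was listed at 0, and the list took 0.892%, 1.10% and 0.967% of reads. Without SRGN and LYZ the other 14 took 0.0907%, 0.129% and 0.103%. MS4A3, a membrane protein of granulocyte and monocyte progenitors, had 343, 523 and 353 RPM. RNASE2, a ribonuclease of eosinophil and myeloid granules, had 152, 341 and 232 RPM, and PRSS57, a serine protease, had 214, 194 and 212 RPM. CTSG, cathepsin G, had 76.6, 87.2 and 106 RPM, and CTSC, the protease that activates granule serine proteases, had 77.0, 60.7 and 59.2 RPM. The neighbours of cathepsin G in function were near 0: ELANE, neutrophil elastase, was listed at 0 in all 3 libraries, and PRTN3, proteinase 3, had 0, 0.476 and 0.248 RPM. AZU1 had 0, 0 and 0.496 RPM. Here and below, in bulk RNA, fewer cells that express a gene and less of its RNA per cell cannot be told apart.

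Of 17 genes of later neutrophil stages, 11 (64.7%, against 46.1% of all genes) were listed at 0 in all 3 libraries, among them LTF, LCN2 and MMP8, proteins of specific granules. A mean of 10 RPM or more was found for 4 (23.5%, against 29.6% of all genes), and none reached 100 RPM. The list took 0.00459%, 0.00855% and 0.00699% of reads. CSF3R, the receptor for granulocyte colony stimulating factor, had 15.2, 42.5 and 28.99 RPM. S100A9 and S100A8, the subunits of calprotectin, had 20.4, 15.1 and 5.45 RPM and 7.03, 15.4 and 9.66 RPM. CXCR2, a neutrophil chemokine receptor, had 3.33, 12.2 and 24.8 RPM.

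Of 35 monocyte and macrophage genes, 13 (37.1%) had a mean of 10 RPM or more and 13 (37.1%) were listed at 0 in all 3 libraries, near the shares of 29.6% and 46.1% over all genes, so the counts say little about the list. The list took 0.154%, 0.195% and 0.172% of reads. MS4A6A, a membrane protein of monocytes and macrophages, had 437, 764 and 506 RPM, and TYROBP, a signalling adaptor of activating myeloid receptors, had 359.5, 518 and 538 RPM. CD33, a lectin receptor of myeloid cells, had 111, 152 and 97.1 RPM, and CD36, a scavenger receptor, had 112, 83.4 and 112 RPM. In all 4 of these genes every library had 83.4 RPM or more. Further down, CD4 had 66.3, 82.2 and 80.3 RPM, CD68 of lysosomes had 34.8, 34.3 and 70.1 RPM and FCER1G, an adaptor of Fc receptors, had 26.6, 48.9 and 37.7 RPM. CSF1R, the receptor that drives macrophage development, had 23.3, 19.4 and 32.2 RPM. CD14, the lipopolysaccharide coreceptor that defines classical monocytes, was listed at 0 in all 3 libraries, as were CD163, FCN1, C1QB and C1QC. ITGAM had 0, 3.65 and 1.98 RPM and ITGAX 0, 4.28 and 1.49 RPM, the integrin chains known as CD11b and CD11c, and both were at 0 in replicate 1. LILRB1, LILRB2 and LILRB4 lie in the leukocyte receptor complex and AIF1 and LST1 in the major histocompatibility complex, so their zeros fall in the regions named above. CD14 and CD163 do not, and nor does PSMB3, which was listed at 0 too. What lies behind the zeros of CD14 and CD163 was not tested.

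The promoters of the 4 monocyte genes with the highest means are shown for the hexamer GAGGAA, the core of many sites of PU.1, the myeloid factor encoded by SPI1. Each run is the 250 bases before the annotated start in transcript orientation, from RefSeq on GRCh38.p14, and capitals mark GAGGAA or its reverse complement TTCCTC, of which the CCR2 promoter has none.
MS4A6A, chr11:60184667-60184916, minus strand: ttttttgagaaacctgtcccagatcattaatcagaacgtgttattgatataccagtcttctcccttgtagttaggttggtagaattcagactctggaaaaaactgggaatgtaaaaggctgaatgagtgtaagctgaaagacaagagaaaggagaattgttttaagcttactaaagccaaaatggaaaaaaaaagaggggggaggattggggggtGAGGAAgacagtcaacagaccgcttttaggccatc
TYROBP, chr19:35908296-35908545, minus strand: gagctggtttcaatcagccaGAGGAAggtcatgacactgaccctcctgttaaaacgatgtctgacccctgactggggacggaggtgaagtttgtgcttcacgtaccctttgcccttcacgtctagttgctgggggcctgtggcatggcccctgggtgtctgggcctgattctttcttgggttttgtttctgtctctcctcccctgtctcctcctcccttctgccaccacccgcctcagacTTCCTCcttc
CCR2, chr3:46353861-46354110, plus strand: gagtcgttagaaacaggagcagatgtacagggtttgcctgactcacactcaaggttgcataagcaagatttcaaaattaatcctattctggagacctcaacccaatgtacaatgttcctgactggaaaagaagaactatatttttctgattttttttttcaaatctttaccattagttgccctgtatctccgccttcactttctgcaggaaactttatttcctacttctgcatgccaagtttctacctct
CD33, chr19:51224830-51225079, plus strand: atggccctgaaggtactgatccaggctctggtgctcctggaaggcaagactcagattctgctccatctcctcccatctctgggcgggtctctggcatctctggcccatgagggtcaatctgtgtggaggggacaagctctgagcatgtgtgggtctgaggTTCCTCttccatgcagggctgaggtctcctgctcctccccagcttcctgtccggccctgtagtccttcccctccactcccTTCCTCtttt
The hexamer, on either strand, occurred in 8 of the 12 promoters in the table among monocyte genes at 10 RPM or more (66.7%). It occurred in 10 of 17 among those under 10 RPM (58.8%) and in 6393 of all 27305 promoters (23.4%). The share was thus similar in monocyte genes with and without a clear level here, and a match is no evidence of binding.

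Of 22 stem and progenitor genes, 7 (31.8%) had a mean of 10 RPM or more and 11 (50%) were listed at 0 in all 3 libraries. Both were near the shares over all genes, but the share at 0 was above the 33.9% of protein-coding genes. The list took 0.161%, 0.125% and 0.145% of reads. MYB, a transcription factor that keeps progenitors proliferating, had 799.6, 701 and 833 RPM at rank 157 and was even, with a coefficient of variation of 8.77%. SOX4 had 271, 139 and 192 RPM and LMO2, a scaffold of haematopoietic transcription complexes, had 126, 111 and 66.7 RPM. KIT, the stem cell factor receptor, had 143, 50.1 and 89.2 RPM, with replicate 1 above replicate 2 by more than 2-fold. CD38 had 60.7, 31.4 and 35.2 RPM. CD34, the surface marker of stem and progenitor cells, was listed at 0 in all 3 libraries, and so were PROM1, ERG, SPINK2 and HLF.

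Targets of KMT2A fusions were mostly at clear levels outside the HOXA cluster. Of 26 genes in that list, 13 had a mean of 10 RPM or more and 8 had 100 RPM or more, and the list took 0.299%, 0.239% and 0.362% of reads. MBNL1, a splicing regulator, had 818, 706 and 1005 RPM, ZEB2 had 405, 238 and 543 RPM and PBX3, a homeobox cofactor, had 268, 231 and 173 RPM. CDK6, the G1 kinase, had 449, 341 and 624 RPM, JMJD1C had 142, 48.2 and 225 RPM and MEF2C had 111, 74.2 and 112 RPM. In both JMJD1C and MEF2C replicate 2 was the lowest library. Within the HOXA cluster HOXA10 had 102, 41.5 and 79.8 RPM, rank 2741, and no other of the 11 members in the list had a mean of 10 RPM. HOXA9, the best known target, had 0, 0 and 0.743 RPM, which is 3 reads in replicate 3 and none in the other two. No other annotated gene overlapped the last 500 exonic bases of HOXA9, as was so for RPS18 and PSMB3. What lies behind the few reads of HOXA9 was not tested.

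Reads at the 3′ end of the fusion transcript fall on AFF1, since the fusion joins the start of KMT2A to the end of AFF1. KMT2A had 253, 102 and 266 RPM and AFF1 41.8, 49.6 and 75.8 RPM, and replicate 2 was low for KMT2A but not for AFF1. These reads cannot separate the fusion from the normal alleles. Genes of the complexes that the fusion works with were read almost throughout: 16 of 18 had a mean of 10 RPM or more. PSIP1, which tethers the KMT2A complex to chromatin, had 148, 95.0 and 189 RPM, and MEN1, menin, had 103, 41.9 and 38.2 RPM. DOT1L, the histone H3 lysine methyltransferase, had 45.2, 32.5 and 50.1 RPM and MLLT1, an elongation factor subunit, had 117, 137 and 89.7 RPM. Its relative MLLT3 was near 0 with 0, 0.952 and 1.24 RPM.

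By mean RPM the blood lineage transcription factors with the highest levels were MYB, ELF1, CEBPA and IKZF1. Of 36 factors, 24 had a mean of 10 RPM or more, 12 had 100 RPM or more and 3 were listed at 0 in all 3 libraries. CEBPA, the granulocyte and monocyte lineage factor, had 539, 394 and 239 RPM, with replicate 1 above replicate 3 by more than 2-fold. SPI1, which encodes PU.1, had 50.7, 78.5 and 97.6 RPM and IRF8, a monocyte and dendritic factor, had 149.9, 249.8 and 123 RPM. IKZF1, Ikaros, had 268, 355 and 441 RPM and ELF1, an ETS factor, had 357, 181 and 703 RPM, with replicate 3 high. RUNX1 had 138, 147 and 167 RPM and GFI1, a repressor of the granulocyte path, had 175, 133 and 68.4 RPM. RUNX1 was close in all 3 libraries. KLF4, a factor of late monocytes, had 4.44, 0.317 and 0 RPM. The erythroid factors GATA1 and GFI1B were listed at 0 in all 3 libraries.

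Markers of other cell types were mostly at or near 0, with NKG7, EPOR and KRT18 the exceptions at a mean of 10 RPM or more. The 20 B lineage markers summed to 0.00122%, 0.00122% and 0.00196% of reads, none had a mean of 10 RPM, and MS4A1 and EBF1 were listed at 0 in all 3 libraries. PAX5, the B lineage transcription factor, had 0, 2.22 and 3.72 RPM and IGLL1, a surrogate light chain, 5.18, 7.14 and 12.9 RPM. The 23 T and NK markers summed to 0.00263%, 0.00195% and 0.00171%, most of it from NKG7, a cytotoxic granule protein, with 21.5, 16.2 and 14.9 RPM, while CD3D and CD3E were listed at 0. The 21 erythroid and megakaryocyte markers summed to 0.000222%, 0.00209% and 0.00171%, with HBB and PF4 listed at 0. EPOR, the erythropoietin receptor, had 1.11, 18.4 and 11.9 RPM, with little in replicate 1. The 16 epithelial and fibroblast markers summed to 0.00178%, 0.00262% and 0.00218%, mostly from KRT18 with 17.8, 19.8 and 12.1 RPM, while EPCAM and COL1A1 were listed at 0.

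**Figure D2:**
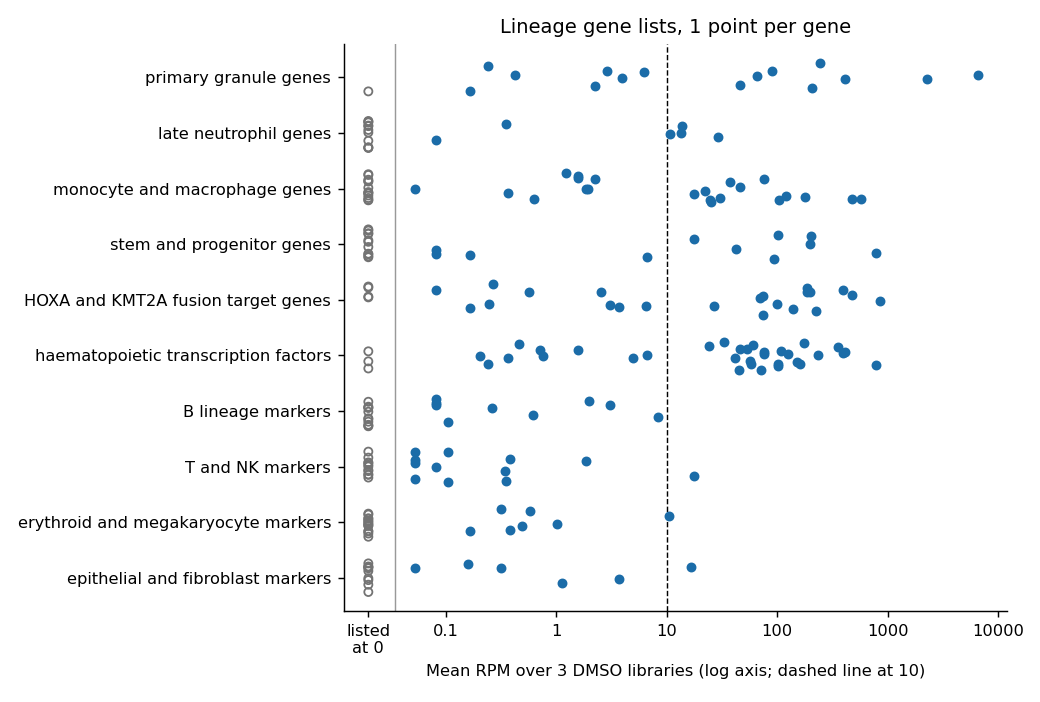
Mean level in RPM over the 3 DMSO libraries (horizontal log axis), with 1 point per gene and 1 row per gene list. Open circles on the left are genes listed at 0 in all 3 libraries, and vertical scatter within a row carries no meaning. The granule, monocyte, progenitor and fusion target lists each reach past 100 RPM, whereas the 4 lists of other cell types hold 3 genes past the dashed line at 10 RPM.

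FLT3 and IL6R had the highest mean RPM of the cytokine receptors, and their order was not fixed: IL6R was ahead in replicate 1 and per base, at rank 1741 against 1879. Of 22 receptor and ligand genes in the list, 11 had a mean of 10 RPM or more and 2 had 100 RPM or more. IL6R, the interleukin 6 receptor, had 248, 112 and 177 RPM, and IL10RB, a subunit of interleukin 10 family receptors, had 109.9, 84.0 and 75.1 RPM. IFNAR2, of the type I interferon receptor, had 52.6, 62.2 and 151 RPM, with replicate 3 high, and IL7R had 18.1, 17.6 and 24.0 RPM. FLT3LG, the ligand of FLT3, had 14.4, 6.18 and 5.95 RPM. IL6ST, the signalling partner of IL6R, had 3.33, 4.92 and 10.2 RPM and CSF2RB, the shared chain of the receptors for GM-CSF and interleukin 3, had 2.59, 10.2 and 5.95 RPM. Its partner chains CSF2RA and IL3RA were listed at 0, and both lie in the pseudoautosomal region named above.

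The JAK kinases carry the signal from these receptors to the STAT transcription factors. All 11 genes of both families were in the table, 9 had a mean of 10 RPM or more, and together they took 0.0647%, 0.0590% and 0.0658% of reads. Among the kinases TYK2 had 106, 215 and 109.5 RPM, JAK1 58.5, 55.7 and 163 RPM, JAK2 50.7, 17.1 and 43.4 RPM and JAK3 0, 3.49 and 2.73 RPM. In TYK2 replicate 2 was high, in JAK1 replicate 3 was high and in JAK2 replicate 2 was low, so the order of the first 3 kinases by RPM is not fixed by these libraries. Per base, the mean levels of TYK2, JAK1 and JAK2 were at ranks 2348, 3992 and 6526. STAT3 had 115, 28.7 and 67.2 RPM and ranged 4-fold between replicates 1 and 2. STAT5A had 44.4, 31.1 and 19.6 RPM and STAT5B 24.4, 19.8 and 32.7 RPM, means of 31.7 ± 12.4 and 25.7 ± 6.53, so by RPM the difference between the 2 genes was within their spread. Per base they were at ranks 5711 and 7316. STAT6 had 72.6, 79.0 and 48.8 RPM, STAT2 30.7, 49.8 and 38.2 RPM and STAT4 0, 0 and 0.248 RPM. STAT4, a lymphoid member, rested on 1 read in replicate 3.

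Known STAT5 targets were read in these cells, which were kept with DMSO in medium with serum. STAT5 activity was not measured here, and what drove these levels was not tested. Of 14, 10 had a mean of 10 RPM or more and 6 had 100 RPM or more. The list took 0.129%, 0.125% and 0.0627% of reads, so replicate 3 was low for the list as a whole. The cyclins of G1 had 232, 197 and 161 RPM for CCND3 and 226, 133 and 126 RPM for CCND2, and MCL1, a survival protein, had 206, 260.4 and 120.2 RPM. All 3 kinases of the PIM family were present, with 108, 269.6 and 24.3 RPM for PIM1, 182, 144 and 44.9 RPM for PIM2 and 196, 118 and 62.2 RPM for PIM3. Replicate 3 was the lowest library for each of the PIM genes, as it was for CCND3, CCND2, MCL1 and CISH, and PIM1 spread from 24.3 to 269.6 RPM. The feedback inhibitors had 75.9, 50.9 and 37.2 RPM for CISH, 20.7, 35.4 and 27.5 RPM for SOCS2 and 5.18, 9.52 and 6.69 RPM for SOCS3. SOCS1 was near 0 with 0, 1.74 and 0 RPM.

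**Figure D3:**
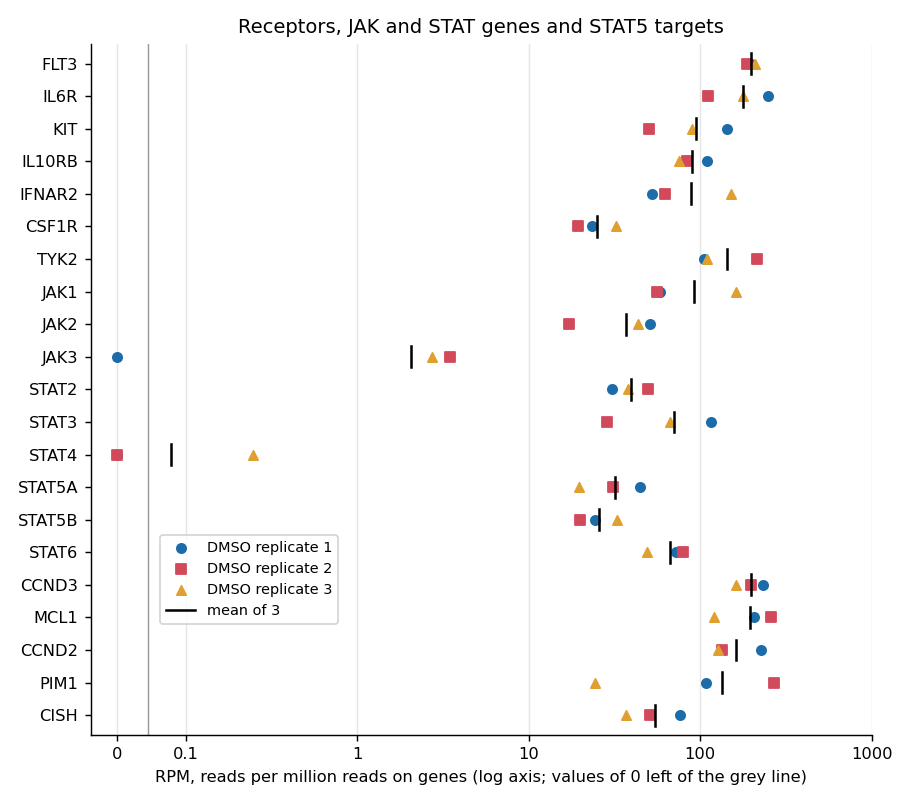
Level of receptor, JAK, STAT and STAT5 target genes in RPM (horizontal log axis). Each point is 1 DMSO library, each black bar the mean of 3, and points left of the grey line are values of 0. FLT3 and CCND3 show close points, STAT3 and PIM1 spread widely, and JAK3 and STAT4 lie apart at the low end.

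Adhesion and chemokine receptor genes were well represented, with 14 of 22 at a mean of 10 RPM or more. SPN, the sialophorin CD43, had 827, 518 and 1253 RPM and ITGAL, the integrin chain CD11a, had 516, 909 and 940.4 RPM. ITGB2, the β chain that pairs with ITGAL, had 1253, 726 and 263 RPM and spread more widely than its partner, with replicate 3 low. CD44, a hyaluronan receptor, had 243, 361 and 277 RPM and CXCR4, the receptor for CXCL12, had 350.2, 322 and 152 RPM. CCR1, a chemokine receptor, had 201, 197 and 198 RPM and the smallest coefficient of variation, 1.11%, of the 2064 genes with a mean of 100 RPM or more.

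Antigen presentation genes were uneven. CD74, the invariant chain of MHC class II, lies outside the histocompatibility complex, on chromosome 5, and had 466, 909.7 and 1006 RPM. HLA-DRB1, a class II chain, had 64.8, 83.6 and 78.8 RPM, and HLA-DRA, its partner, had 0.370, 9.52 and 0.496 RPM. The class II activator CIITA had 39.6, 6.98 and 6.44 RPM, with replicate 1 high. Of 13 class II genes 6 were listed at 0, and of 12 class I genes 7 were. HLA-B had 21.8, 37.3 and 16.6 RPM, while B2M, the light chain of class I molecules on chromosome 15, had 4.81, 19.4 and 0.743 RPM. HLA genes have close relatives within the complex, so their levels are uncertain. B2M rested on 13, 122 and 3 reads, and its level is uncertain too, as genes that every cell uses were listed at 0 above. What lies behind it was not tested.

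Of 39 cell cycle genes, 37 were read in all 3 libraries, 36 had a mean of 10 RPM or more and 28 had 100 RPM or more, and they took 1.33%, 1.33% and 1.25% of reads. TOP2A, the topoisomerase of dividing cells, had 2202, 1192 and 1923 RPM and MKI67, the proliferation antigen, had 369, 337 and 949 RPM. MCM4, a subunit of the replicative helicase, had 527, 446 and 809.8 RPM and BIRC5, survivin, had 201, 177 and 179.9 RPM. MCM3, another helicase subunit, had 325, 349 and 325 RPM. MCM3 and BIRC5 were close in all libraries and MKI67 was high in replicate 3. Both genes not read in replicate 1 were TYMS, thymidylate synthase, with 0, 1.59 and 1.24 RPM, and CDKN2B, a cell cycle inhibitor, with 0, 2.54 and 2.73 RPM. For TYMS 100% of the last 500 exonic bases overlapped another annotated gene. TUBA1B of the same list had an overlap of 100% too, with a mean level of 3357 RPM.

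The 3 libraries ranked genes alike but not closely. Over 9195 genes with a mean of 5 RPM or more, Pearson's r of log2(RPM + 1) was 0.789 for replicates 1 and 2, 0.804 for 1 and 3 and 0.888 for 2 and 3. Spearman's rho was 0.823, 0.833 and 0.880. These correlations are across genes, which share the library and are not independent replicates, and they carry no p. Over the 3804 genes with a mean of 50 RPM or more r was 0.776, 0.797 and 0.794, so at that level replicates 2 and 3 were no closer than replicates 1 and 3. Reads of 2 libraries differed far beyond counting error, with a chi-square per degree of freedom of 45.9 to 67.7, so no 2 of the columns hold the same library.

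**Figure D4:**
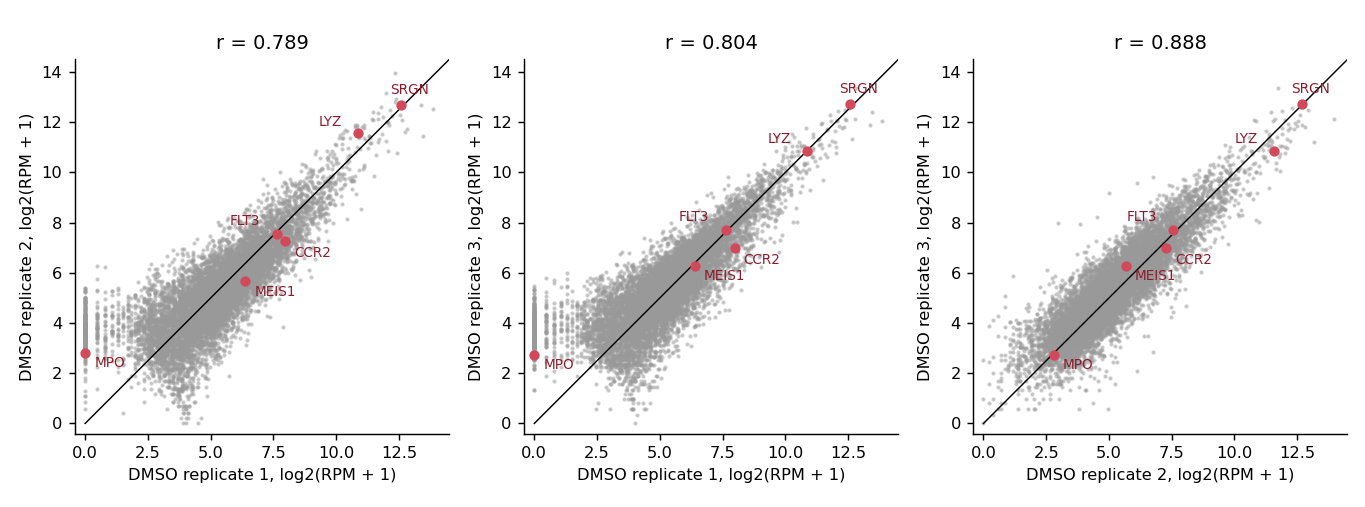
Levels in 1 DMSO library against another as log2(RPM + 1) on both axes, for the 9195 genes with a mean of 5 RPM or more (grey), with the black line of equality. Red points are the 6 marker genes, MPO included although its mean is under 5 RPM. Replicate 1 shows a column of genes at 0 that replicates 2 and 3 read, among them MPO.

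Differences of 2-fold or more between 2 libraries of the same condition were common. Of the 3804 genes, 511 (13.4%) were 2-fold or more higher in replicate 1 than in 2, and 439 (11.5%) the other way. Between replicates 1 and 3 the counts were 373 (9.81%) higher in 1 and 427 (11.2%) higher in 3. Between 2 and 3 they were 290 (7.62%) higher in 2 and 561 (14.7%) higher in 3. The SD of the log2 difference was 0.88, 0.82 and 0.83 for the 3 pairs. Over the 2064 genes with a mean of 100 RPM or more, the median coefficient of variation was 32.4%, and 129 genes were under 10%. With 1 library on each side, none of these counts has a replicate check.

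Counts past 2-fold in the granule, monocyte and progenitor lists were small and near the shares over all genes. In the STAT5 target and leukaemia surface antigen lists some counts were above those shares. Of the 7 primary granule genes with a mean of 50 RPM or more, 1, RNASE2, was past 2-fold in any pair, higher in replicate 2 than in 1, as 11.5% of all 3804 genes were. None of the 6 monocyte genes at that level was past 2-fold in any pair. Of the 5 stem and progenitor genes at that level, KIT alone was, higher in replicate 1 than in 2, as 13.4% of all 3804 genes were. Of 7 STAT5 targets at that level 4 were higher in replicate 1 than in 3, as 9.81% of all genes were, and 3 were higher in 2 than in 3, as 7.62% were. Of 8 leukaemia surface antigen genes 4 were higher in replicate 1 than in 2, where 13.4% of all genes were, and 1 the other way. Median coefficients of variation were 16.7% for the granule genes, 22.3% for the monocyte genes and 30.4% for the progenitor genes, against 33.4% over all 3804 genes. The lists are short, so these counts describe the named genes only.

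Several housekeeping lists leaned to 1 library. Of 70 nuclear genes of oxidative phosphorylation with a mean of 50 RPM or more, 22 were 2-fold or more higher in replicate 2 than in 1 and 2 the other way, where 11.5% and 13.4% of all genes were. Between replicates 2 and 3, 13 were higher in 2 and 1 in 3, where 7.62% and 14.7% of all genes were. Of 76 ribosomal protein genes 17 were higher in replicate 2 than in 1 and 5 the other way, and 14 were higher in 2 than in 3 and 3 the other way. Of 17 cytoskeleton genes 8 were higher in replicate 2 than in 1 and 1 the other way, and 7 were higher in 2 than in 3 and 0 the other way. The shares over all genes given for the oxidative phosphorylation list apply to these lists too. ACTB, cytoplasmic actin, had 1113, 2662 and 673 RPM, PFN1, profilin, had 433, 1251 and 313 RPM and TMSB4X, thymosin, had 1419, 2023 and 256 RPM. All 3 were highest in replicate 2 and lowest in replicate 3. GAPDH, a glycolytic enzyme, was even, with 2604, 2631 and 2552 RPM.

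Transcript length moved with these differences. Only genes with a mean of 50 RPM or more were used here, of which 3789 had a length. Median transcript length was 750.0 bases for the oxidative phosphorylation genes, 776.8 for the ribosomal protein genes and 1555 for the cytoskeleton genes. Over all 3789 genes it was 2376. These 3789 genes were split into 4 groups by length. The group with the shortest transcripts (75 to 1473 bases) took 37.8%, 43.1% and 33.5% of reads, and the group with the longest (3896 to 27174 bases) took 15.2%, 11.7% and 17.5%. The log ratio of replicate 1 to 2 had a Spearman rho of 0.26 with length across genes, that of 1 to 3 had -0.14 and that of 2 to 3 had -0.41. With GC content of the transcripts the values were -0.21, 0.20 and 0.43. Without the ribosomal protein genes the values for length were 0.25, -0.14 and -0.40. Length and GC vary together across genes, and their part in the differences between libraries was not tested.

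**Figure D5:**
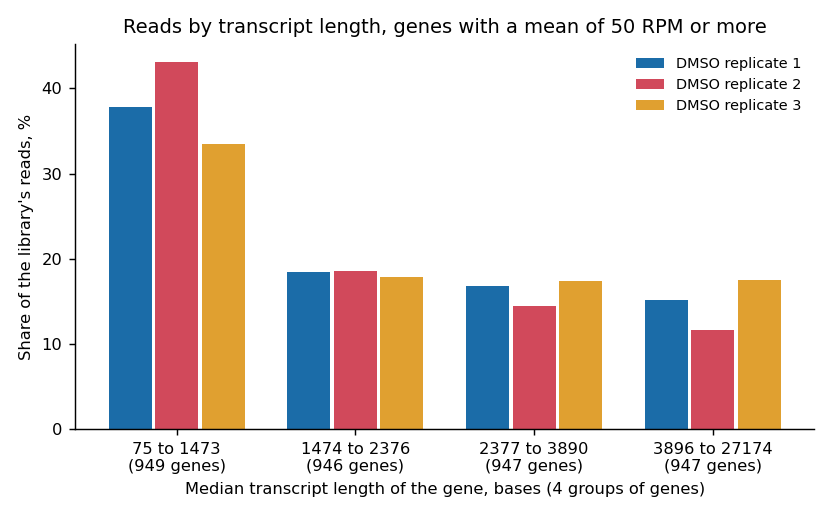
Share of each DMSO library's reads in percent (vertical axis) in 4 groups of genes by median transcript length, for genes with a mean of 50 RPM or more, with 1 bar per library. Replicate 2 has the highest bar for the shortest transcripts and the lowest bar in the longest, and replicate 3 the reverse.

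Each library also had genes of its own. Replicate 1 lay 2-fold or more above both others in 171 genes (4.5%) and below both in 171 (4.5%). For replicate 2 the counts were 127 (3.34%) and 201 (5.28%), and for replicate 3 they were 131 (3.44%) and 88 (2.31%). CD70, a ligand of the tumour necrosis factor family found on leukaemic blasts, was high in replicate 1 with 164, 17.8 and 20.6 RPM. ATF5, a stress transcription factor, was also high there with 516, 56.1 and 75.1 RPM. In replicate 2 NPM3, a nucleoplasmin family chaperone, was high with 136, 862 and 140 RPM. Linker histone HIST1H1C was low in replicate 2 with 485, 68.8 and 762 RPM, and HIST1H1E was high in replicate 3 with 65.9, 21.7 and 299 RPM. Replication-dependent histone mRNAs lack a poly(A) tail in most cells. Small nucleolar RNAs followed the same order, with 232, 13.3 and 246 RPM for SNORD26 and 132, 30.6 and 579.9 RPM for SNORD50A, and snoRNA genes as a class took 0.0566%, 0.0207% and 0.131% of reads. Replicate 2 was lowest and replicate 3 highest for that class.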

How the data were processed

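Gene expression of MV4-11 cells after 24 h with DMSO was measured in 3 libraries made with a QuantSeq 3′ kit and read in single 70-base reads, per the labels. The submitters' processing notes name the aligner STAR 2.4.2a, the counter featureCounts 2.0.3, the tools SAMtools 1.4 and FastQC 0.11.9, the build GRCh38, and DESeq2 with no version. Not given in the sources used here are the strand, the annotation and the rule for multiply mapping reads. The authors deposited 1 table of normalised counts with a decimal comma, for 26929 gene symbols. The 6 columns of treated libraries were not used.

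Every nonzero value of a DMSO column (100%) was a whole multiple of that column's minimum at a tolerance of 1e-06. Division by the minimum gave whole reads, which were expressed per 1000000 reads on genes (RPM), free of the authors' scaling. Totals were 2701317 to 6305586 reads, so 1 read is 0.159 to 0.37 RPM. No molecular identifiers are named, so counting limits cover counting error only. Symbols were matched to RefSeq (GRCh38.p14), 24159 by symbol and 1442 by synonym, and 1328 found no match. GENCODE 29 gave transcript length, GC content and overlaps for 24689 genes.

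The text names the 25 highest genes, the 6 markers, the 4 highest members and the defining markers of 28 lists, and the genes farthest from both other libraries, the 5 in each direction for each library, or with extreme coefficients of variation. Other list members are named to fill a role and were chosen after their values were seen, and a few genes that the rule names are not reported here. The members and lists were chosen with earlier results of these data known. Pseudocount 1 was used for log2 values, genes under 5 RPM were left out of correlations and genes under 50 RPM out of folds. No count model was run, and the SD of log2 differences describes the dispersion. The calculation of folds, size factors and depth was tested on simulated data. Python 3.11.15, pandas 2.3.3 and scipy 1.17.1 were used.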

Additional observations from a re-analysis of the deposited data

How the results depend on the processing

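The ranking was stable to scaling. Deposited normalised counts, median-of-ratios factors and TMM factors from the 3 DMSO libraries each moved the rank of 0 of 165 named genes beyond the spread of its ranks over libraries, and 25 of the top 25 genes were the same. With the median over libraries 16 of 161 ranks moved, and leaving out replicate 1, 2 or 3 moved 11 of 165, 9 of 164 and 5 of 162. Per base of GENCODE transcript, a setting chosen after seeing the data, 66 of 162 ranks moved and 19 of the top 25 genes remained. Leaving out 1 of 3 libraries cannot move a mean beyond 1 SD, so for list shares that check says nothing about stability.

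Counts and agreement depended on thresholds. Genes detected per library averaged 12198, and 9981 at 10 reads or more. Genes holding 50% of reads averaged 513, and 755 without ribosomal protein genes. The mean correlation of 0.827 became 0.921 with no filter on low values, over the 14503 genes with a read in at least 1 library. With the filter kept and 1 library left out, the correlation ran from 0.789 to 0.888. The mean share of genes past 2-fold was 22.8%, against 30.6% at a mean of 5 RPM or more, 25.5% with deposited normalised counts and 2.24% past 4-fold, and 21.03% to 24.97% with 1 library left out. The SD of the log2 difference, 0.84, became 1.09 with no filter and ran from 0.82 to 0.88 with 1 library left out.

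No paired analysis was possible because the values come from 1 group and no test. A ranking per length of protein was not run, since no protein table was used here. A count model of the dispersion was not run either. Depth limits what can be said below about 1.11 RPM in replicate 1, and groups of 3 were too small for a check of single outlying libraries.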

Other observations

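Genes of the BCL2 family, which set the threshold of mitochondrial cell death, were read in most members, 12 of 16 at a mean of 10 RPM or more. Among the survival members MCL1 and BCL2 itself were past 100 RPM, BCL2 with 113, 136 and 306 RPM and its highest value in replicate 3. BCL2L1, which encodes BCL-XL, had 27.0, 6.82 and 6.44 RPM and BCL2A1 had 0, 0.476 and 0.248 RPM. Of the effectors BAX had 185, 49.0 and 48.1 RPM, with replicate 1 high, and BAK1 had 5.92, 11.3 and 20.3 RPM. The sensor BID had 104, 164 and 97.4 RPM, BBC3, known as PUMA, had 11.8, 52.2 and 44.6 RPM and BCL2L11, known as BIM, had 12.2, 27.6 and 28.5 RPM. HRK and BOK were listed at 0 in all 3 libraries. The family took 0.0784%, 0.0815% and 0.0758% of reads, a mean of 0.0786% ± 0.00284.

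Stress genes were at clear levels in 15 of 26 cases. TXNIP, a glucose-responsive inhibitor of thioredoxin, had 872, 638 and 582 RPM and HSPH1, a chaperone of the HSP110 family, had 558, 349.7 and 846 RPM. ATF4, the translation-controlled stress factor, had 343, 127 and 221 RPM, whereas DDIT3, known as CHOP, had 0, 4.28 and 7.68 RPM and HMOX1, haem oxygenase, had 0.370, 0.159 and 0.496 RPM. Of the immediate early genes JUND had 369, 750.3 and 455 RPM, FOS 18.9, 12.4 and 12.9 RPM and JUN 0, 9.52 and 4.96 RPM, with JUN at 0 in replicate 1. HSPA1A was listed at 0 and its near-identical copy HSPA1B had 0, 0.159 and 0 RPM, so their levels are uncertain.

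Among surface antigens followed in acute myeloid leukaemia, 11 of 21 had a mean of 10 RPM or more. PTPRC, known as CD45, had 178, 72.0 and 141 RPM, TNFRSF1A had 172, 119 and 65.9 RPM and CD37 had 31.5, 95.5 and 56.2 RPM. IL1RAP had 72.6, 29.97 and 68.9 RPM and CD47, the signal that restrains phagocytes, had 18.9, 54.1 and 55.3 RPM. CLEC12A had 3.33, 2.22 and 4.71 RPM, and CD96 and HAVCR2, known as TIM-3, were listed at 0 in all 3 libraries.

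Enzymes of glycolysis were read nearly throughout, 17 of 19 at a mean of 10 RPM or more, and took 0.840%, 0.948% and 0.903% of reads. ENO1, enolase, had 1486, 2615 and 2361 RPM, ALDOA, aldolase, had 1187, 429 and 717 RPM and LDHB had 716, 582 and 595 RPM, while LDHA, the other lactate dehydrogenase chain, had 301, 738 and 316 RPM. PGAM1 was near 0 with 0, 3.65 and 3.22 RPM. Proteasome subunits took 0.639%, 0.655% and 0.609% of reads, with 34 of 39 at a mean of 10 RPM or more. PSMA7, a core subunit, had 670.4, 607 and 639 RPM in 3 close libraries, and PSMB1 had 333, 604 and 163 RPM, with replicate 2 high and replicate 3 low.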
